A study of Mus musculus with 3 samples.

Results

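Barcodes that met a gene rule for mature neurons of the dentate gyrus made up 94 of 1876 kept cell barcodes in 3 single-cell RNA sequencing libraries. Most of the 94 carried granule neuron markers. Some also carried many glial or immature neuron genes, as described below. A barcode was kept with at least 200 detected genes and under 10% of its unique molecular identifiers (UMIs, which count captured RNA molecules) in mitochondrially encoded genes. It was counted as a mature neuron if at least 4 of 13 neuronal membership genes were detected, fewer than 2 of 6 Cajal-Retzius cell genes were detected, and Sox11, a transcription factor of immature neurons, had fewer than 2 UMIs. The 3 libraries held 8105 barcodes in all.

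Each condition was 1 library. The control library came from 8-week-old mice in standard housing, the runner library from littermates of the controls that were given a running wheel for 12 days, and the aged library from mice of 14 months without a wheel. All 3 libraries carry the strain label hGFAP-eGFP, a reporter line in which a human GFAP promoter drives green fluorescent protein, while the series text speaks of WT mice and mentions that reporter only with the 14-month animals. No label gives the number or the sex of the mice in a library or describes a cell sort. With 1 library per condition there is no replicate, so no test between conditions was possible and intervals cover counting error only.

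Granule neurons are the principal excitatory neurons of the dentate gyrus. They receive input from the entorhinal cortex on their dendrites and send mossy fibre axons to CA3 pyramidal neurons. New granule neurons are added in adult mice, passing through an immature stage marked by Sox11 and Dcx, and mature cells switch on Calb1, a calcium buffer, and the synaptic proteins C1ql2 and C1ql3 while keeping Prox1, the transcription factor that sets granule identity.

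The mature neurons yielded 51049, 156553 and 30558 UMIs in the control, runner and aged libraries, and CPM values are a gene's UMIs per 1000000 UMIs of these sums. Their median depth was 1950.5, 2818 and 2434 UMIs per cell, against 1436.5, 1731 and 1408 in the other kept barcodes. Their median mitochondrial share was 5.77%, 5.56% and 5.57%. The libraries shared 10, 10 and 8 barcode sequences pairwise, none of them a mature neuron. The UMIs are counted at the 3′ ends of transcripts and are not scaled to length.

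Levels of the membership genes describe how the cells were chosen and support nothing further. The granule transcription factor Prox1 (ENSMUSG00000010175.13, chr1:190118035-190170714, minus strand, GRCm38) was detected in 13, 36 and 4 of 24, 58 and 12 cells, with 411, 345 and 229 CPM in the control, runner and aged libraries. Calb1 was detected in 7, 26 and 4 cells, with 372, 249 and 262 CPM. C1ql2 had 157, 300.2 and 131 CPM and C1ql3 803, 556 and 556 CPM. The small GTPase gene Rasl10a had 333, 581 and 753 CPM. Among genes of the synapse, Syt1, the calcium sensor of vesicle release, had 803, 619.6 and 556 CPM, and Snap25, a fusion protein of the same machinery, had 1606, 1182 and 884 CPM. Slc17a7, the vesicular glutamate transporter, was detected in 15, 42 and 9 cells, or 66 of the 94, with 627, 575 and 589 CPM. Nrgn, a calmodulin-binding dendritic protein, had 1391, 1622 and 1374 CPM, and Grin2b, an NMDA receptor subunit, 529, 933 and 556 CPM. The remaining membership genes were Ncdn with 1567, 1348 and 1833 CPM, Rbfox3 with 274, 256 and 196 CPM and Icam5 with 235, 217 and 196 CPM. Per cell, a median of 8, 9 and 7.5 of the 13 genes was detected. At the edge of the rule, 2, 4 and 2 cells had exactly 4 membership genes, and 4 barcodes in each library had exactly 3 and met every other condition.

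**Figure D1:**
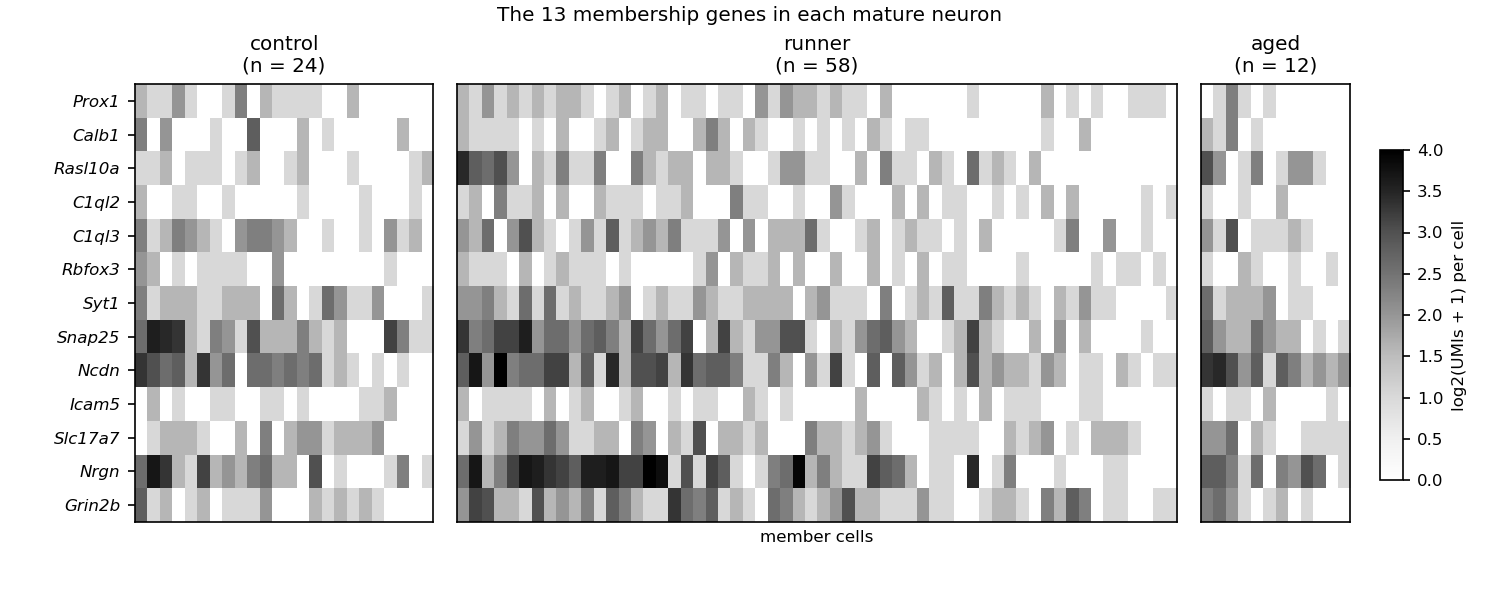
UMIs of the 13 membership genes (rows) in each mature neuron (columns, ordered by the number of these genes detected) of the control, runner and aged libraries, as log2(UMIs + 1) in grey. Detection is patchy in every library: Ncdn and Nrgn fill most columns, while Calb1 is seen in 7 of 24, 26 of 58 and 4 of 12 cells.

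Upstream sequence is shown for 2 membership genes, C1ql2 and Slc17a7, for Atp1b1, the gene outside the rule with the highest ratio to the other barcodes, and for Rprml, which stood 6.96 times higher in runner than in control neurons. Each line gives the 250 bases before the RefSeq transcription start (build GRCm38.p6), 5′ to 3′, with GC boxes (GGGCGG or its reverse complement CCGCCC) in capitals.
C1ql2, chr1:120340332-120340581, plus strand: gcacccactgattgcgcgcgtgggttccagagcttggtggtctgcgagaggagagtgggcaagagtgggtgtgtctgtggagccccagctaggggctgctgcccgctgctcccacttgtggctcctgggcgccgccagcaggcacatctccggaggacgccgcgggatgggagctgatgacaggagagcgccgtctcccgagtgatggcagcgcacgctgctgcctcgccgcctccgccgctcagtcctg
Slc17a7, chr7:45163671-45163920, plus strand: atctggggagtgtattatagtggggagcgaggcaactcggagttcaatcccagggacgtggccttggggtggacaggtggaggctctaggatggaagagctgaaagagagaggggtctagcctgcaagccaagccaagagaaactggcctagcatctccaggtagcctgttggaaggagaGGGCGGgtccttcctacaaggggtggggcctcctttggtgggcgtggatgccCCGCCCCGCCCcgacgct
Atp1b1, chr1:164458356-164458605, minus strand: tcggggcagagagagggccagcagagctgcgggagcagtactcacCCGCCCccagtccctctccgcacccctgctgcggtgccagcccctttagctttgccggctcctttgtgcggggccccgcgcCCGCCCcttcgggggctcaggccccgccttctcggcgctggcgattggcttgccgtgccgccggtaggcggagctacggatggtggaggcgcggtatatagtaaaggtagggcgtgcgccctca
Rprml, chr11:103649259-103649508, plus strand: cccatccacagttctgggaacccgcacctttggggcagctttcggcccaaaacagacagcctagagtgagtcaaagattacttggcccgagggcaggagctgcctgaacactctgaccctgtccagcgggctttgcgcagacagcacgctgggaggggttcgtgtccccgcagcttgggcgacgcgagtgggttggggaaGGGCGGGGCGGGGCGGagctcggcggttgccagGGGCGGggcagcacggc
The Rprml stretch held 4 overlapping or neighbouring GC boxes within its last 50 bases, Slc17a7 held 3, Atp1b1 held 2 and C1ql2 none. RefSeq windows were found for 10 of the 13 membership genes and 15 of the 25 leading genes described below. A GC box stood in 8 of the 10 and 10 of the 15, against 35.4% of 27025 genes with a window. The E-box CAGATG or its reverse complement CATCTG stood in 2 of the 10 and 1 of the 15, against 16.3% of all genes. The full cyclic AMP response element TGACGTCA was in none of the genes matched in either group and in 1.77% of all genes. These matches describe letters in a window and are not binding sites.

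Most cells carried granule neuron genes. At least 1 of Prox1, Calb1, C1ql2, C1ql3 and Rasl10a was detected in 22 of 24 control, 57 of 58 runner and 10 of 12 aged cells. Granule markers that the rule did not use were also present. At least 2 of them were detected in 21, 42 and 7 cells. Ntng1, a synaptic adhesion protein, had 333, 198 and 295 CPM against 0.679 CPM in the other kept barcodes. Tanc1, a postsynaptic scaffold, had 176, 236 and 295 CPM. Since the cells were chosen on neuronal genes, these levels are a description and no test of the label.

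Markers of pyramidal neurons and of mossy cells each summed to at most 2 UMIs in any cell, while genes of the GABAergic neuron list were found in most cells. Neurod6, which marks pyramidal neurons, had no UMI in any of the 94 cells, and at least 2 pyramidal markers were detected in 1, 4 and 1 cells. At least 1 pyramidal marker was detected in 41 of the 94 cells. The pyramidal list stood at 206 CPM over all libraries against 182 CPM in the other kept barcodes, so it was not depleted. CA2 neuron markers stood at 37.8 CPM against 7.81 CPM, from 9 UMIs. Mossy cell markers summed to 4, 10 and 1 UMIs. The GABAergic list summed to 35, 83 and 12 UMIs, with at least 1 of its genes in 59 of the 94 cells, and stood at 546 CPM over all libraries against 48.6 CPM in the other kept barcodes. Most of these UMIs came from 3 genes: the neuropeptide gene Cck had 25, 42 and 2 UMIs in 10, 17 and 2 cells, Adarb2, of the adenosine deaminase family, 5, 12 and 6 in 4, 11 and 5 cells, and Gad1, which encodes a GABA-synthesising enzyme, 4, 15 and 3 in 4, 14 and 2 cells. Gad2 was detected in 1, 1 and 0 cells, and Slc32a1, the vesicular GABA transporter of inhibitory neurons, in none, and no cell carried 2 of Gad1, Gad2 and Slc32a1. All 9 listed Cajal-Retzius markers were at 0 UMIs in every cell, partly by the rule.

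Immature neuron genes were low but not absent. At least 3 of the 14 listed genes were detected in 6 of 24 control, 22 of 58 runner and 2 of 12 aged cells. Their summed level was 1273, 1527 and 982 CPM. Sox11, of which the rule allows 1 UMI, was detected in 2, 14 and 2 cells. Dcx, a microtubule protein of migrating neurons, had 2, 6 and 0 UMIs. Neurod1, a transcription factor of granule neuron differentiation, had 9, 11 and 0 UMIs in 9, 10 and 0 cells. Summed over all 3 libraries, Neurod1 stood at 84.0 CPM, against 942 CPM in the 212 kept barcodes with at least 2 Sox11 UMIs and fewer than 2 Cajal-Retzius genes. One runner cell carried 11 of 14 immature neuron genes with 34 UMIs, the most of any mature neuron. Immediate early genes, which neurons transcribe within minutes of activity or tissue handling, were also low. Fos had 78.4, 159.7 and 32.7 CPM in the mature neurons and 4078 CPM over the other kept barcodes, and Junb had 118, 147 and 65.4 CPM against 3285 CPM. Both sets passed through the same 30 min trypsin digestion. The other kept barcodes differ in cell type, with microglia markers at 19589 CPM against 458 CPM in the mature neurons. The part of cell type or handling in these levels was not tested.

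Glial UMIs per cell were highest in 4 cells, each with at least 20 UMIs of 1 glial marker list. One control cell carried 8 of 12 microglia genes with 21 UMIs and 113 of the 178 UMIs of Cst3, a protease inhibitor abundant in microglia, in the control neurons. In the runner library 2 of 58 cells carried 68 and 87 UMIs of oligodendrocyte genes. An aged cell carried 11 of 12 astrocyte genes with 143 UMIs. That aged cell met the rule with exactly 4 membership genes, had no UMI of Prox1, Calb1, C1ql2, C1ql3 or Rasl10a, and held 98 of 104 Apoe, 49 of 79 Camk2a and 38 of 51 Ddn UMIs of the aged neurons. Scrublet called 0 of the 94 cells as doublets and 10 of all 1876 kept barcodes. The comparisons below are therefore given with and without these 4 cells, called glia-rich. Outside them, one runner cell carried 6 genes of oligodendrocyte precursors with 14 UMIs, and the shallowest aged cell, with 720 UMIs, had no granule marker. Low glial counts were widespread: over all 94 cells, at least 1 astrocyte gene was detected in 76, at least 1 oligodendrocyte gene in 62 and at least 1 microglia gene in 49. Leaving out the glia-rich cells therefore does not remove all glial RNA.

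**Figure D2:**
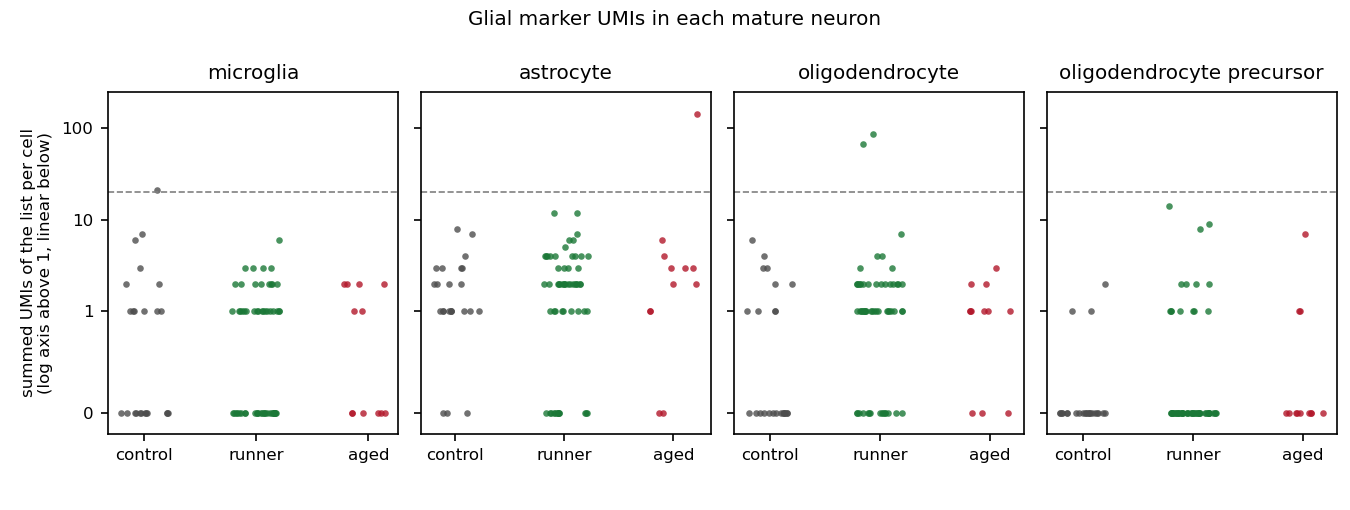
Summed UMIs of 4 glial marker lists in each mature neuron (1 point per cell, jittered sideways) by library; the axis is logarithmic above 1 and linear below, and the dashed line marks 20 UMIs. The 4 cells above the line hold 21 microglia, 68 and 87 oligodendrocyte and 143 astrocyte UMIs.

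Genes outside the rule that stood highest in the mature neurons over other kept barcodes belonged to excitability, glutamate reception and calcium signalling. This contrast is not independent of the rule and carries no test. Of 12219 genes with a UMI in the mature neurons, 427 were detected in at least 25% of the cells and at least 2-fold over the other barcodes in every library. Of the 427, 297 were also at least 2-fold over both the Sox11 barcodes and the 154 barcodes with at least 2 Cajal-Retzius genes. Ratios here are of CPM plus 20. Atp1b1, a sodium pump subunit, was detected in 91 of 94 cells with 1587, 1559 and 1309 CPM, 32.2 times the level in other barcodes. Cacna1e, a voltage-gated calcium channel, had a ratio of 13.3.

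Among receptors, the NMDA receptor subunit gene Grin2a had 509, 613 and 425 CPM and a ratio of 21.4, and the AMPA receptor subunit gene Gria1 had 588, 703 and 393 CPM and a ratio of 14.4. Downstream of calcium, Ppp3ca, the catalytic subunit of calcineurin, was detected in 90 cells with 2997, 2389 and 3305 CPM and a ratio of 15.0, and Camk2b, a subunit of the calmodulin kinase of synapses, in 83 cells with a ratio of 17.2. Chn1 and Kalrn, which act on small GTPases in dendrites and axons, had ratios of 22.5 and 14.2. Presynaptic genes included Sncb, which encodes a protein of synaptic terminals, with a ratio of 13.9 and Nsf, which recycles the fusion machinery, with 13.5.

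Some of these genes separated the mature neurons less from Cajal-Retzius barcodes than from immature ones. Sncb was 2.82 times the Cajal-Retzius level and 9.47 times that of the Sox11 barcodes, and Nptx1, a synaptic pentraxin, 3.91 and 15.6 times.

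Mature neurons were 24 of 514 kept barcodes in the control library (4.67%, exact binomial 95% interval 3.01 to 6.87), 58 of 969 in the runner library (5.99%, 4.58 to 7.67) and 12 of 393 in the aged library (3.05%, 1.59 to 5.27). The runner share was 1.32 percentage points above the control share (Newcombe 95% interval -1.24 to 3.57), and the aged share minus the control share was -1.62 points (-4.16 to 1.06), so both intervals included 0. The aged share minus the runner share, a comparison added after the values were seen, was -2.93 points (-5.05 to -0.357) and its interval excluded 0. That interval included 0 with at least 3 membership genes (-4.64 to 0.473), under 5% mitochondrial UMIs (-3.17 to 2.47), without cells carrying 3 or more genes of a glial list (-3.96 to 0.0238) and after thinning to 1000 UMIs (-4.78 to 0.998). Thinning to 1000 UMIs left out 105, 109 and 125 shallower barcodes, and the shares among the remaining 409, 860 and 268 were 5.38%, 6.05% and 3.73%. Of the barcodes with at least 10% mitochondrial UMIs, 31 of 1789, 40 of 1990 and 18 of 1877 met the gene rule, or 1.73%, 2.01% and 0.959%. Among these the aged share minus the control share was -0.774 points (-1.57 to -0.0228), an interval that excluded 0. A share of kept barcodes also moves with the other cell types captured, and no mouse-to-mouse spread is known.

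**Figure D3:**
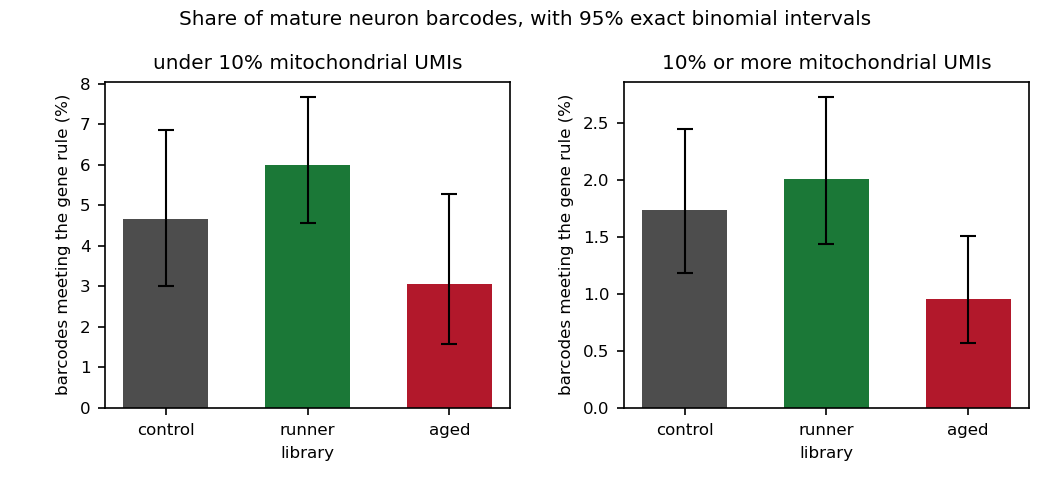
Share of barcodes that met the gene rule in each library (bars) with exact binomial 95% intervals (lines), among barcodes under 10% mitochondrial UMIs (left) and at 10% or more (right). Left, the shares are 4.67%, 5.99% and 3.05% with overlapping intervals; right, they are 1.73%, 2.01% and 0.959%.

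In runner mice, the question is how mature granule neurons differ after 12 days with a wheel. Of 1985 genes with at least 20 UMIs over both libraries, 175 were at least 2-fold higher in the runner neurons (8.82%) and 88 at least 2-fold lower (4.43%). Without the glia-rich cells, 159 of 1886 were higher (8.43%) and 78 lower (4.14%). Runner neurons held 156553 UMIs against 51049 in control. A gene high in runner neurons therefore reached 20 UMIs more easily than a gene low there. The filter favours the higher side, so the split between higher and lower is not a result in itself. Rprml (ENSMUSG00000046215.3, chr11:103649570-103650579, plus strand), a relative of the cell cycle gene Reprimo, had 3 UMIs in 3 of 24 control cells, 64 in 25 of 58 runner cells and 3 in 1 of 12 aged cells. Its levels were 58.8, 409 and 98.2 CPM, and no runner cell held more than 8 UMIs. The runner to control ratio was 6.96 (95% interval 2.28 to 34.6), against 0.878 in the other kept barcodes, and 6.87 (95% interval 2.25 to 34.2) without glia-rich cells. Tmsb10, an actin-binding thymosin, had 97.9, 639 and 393 CPM and was detected in 5, 29 and 5 cells, a runner to control ratio of 6.52 (95% interval 2.70 to 20.5). Its highest count in a runner cell, 10 UMIs, was in the cell with 11 of 14 immature neuron genes. Tmsb10 was also higher in the other runner barcodes, by 1.49 times. Without cells carrying 3 or more genes of a glial list, the log2 ratios of 2.59 for Rprml and 2.57 for Tmsb10 became 1.78 and 1.43.

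Other genes that were higher in runner neurons were seen in many cells at low counts. Dgkz, a diacylglycerol kinase, was detected in 2, 33 and 4 cells, with a ratio of 5.11 (95% interval 1.64 to 25.7). Cbx5, a heterochromatin protein, was detected in 3, 29 and 5 cells, with a ratio of 4.40 (95% interval 1.62 to 16.7). Mob4, a component of a phosphatase complex, had no UMI in control neurons and 23 UMIs in 21 runner cells. Setting the control to 3 counts over the library gave a ratio of 2.50. The 95% interval of the Mob4 log2 ratio began at 0.906, under 2-fold. After thinning to 1000 UMIs the log2 ratio of Cbx5 was 0.41, under 2-fold, and with at least 3 membership genes that of Mob4 was 0.88. Rps27rt and Wdr89 had ratios of 4.10 and 4.11, and they stood 2.82 and 2.70 times higher in the other runner barcodes too. Reads of Rps27rt, a retrotransposed copy, are hard to separate from those of its parent gene. Cd9, a membrane tetraspanin, had a ratio of 13.4 (95% interval 2.27 to 541), which became 1.93 (95% interval 0.234 to 88.9) without the glia-rich cells.

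Among genes that were lower, Rab3a, a GTPase of synaptic vesicles, had 666, 313 and 393 CPM and a ratio of 0.47 (95% interval 0.297 to 0.751). Cst3 had a ratio of 0.326 (95% interval 0.263 to 0.404), which became 0.852 (95% interval 0.637 to 1.15) without the glia-rich cells.

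Over all genes tested in runner neurons the median log2 ratio was -0.03. The granule neuron list was lower: 11 measured genes had a median of -0.54, with 2 above the control level, 0 at least 2-fold higher and 1 at least 2-fold lower, against 8.82% and 4.43% of all tested genes. Its summed level was 4741 CPM in control (95% interval 4162 to 5377), 3532 in runner (3244 to 3839) and 3502 in aged neurons (2870 to 4231). However, 5 genes of this list also served to choose the cells. Of its 242 control UMIs, Prox1 held 21, Calb1 19, C1ql2 8, C1ql3 41 and Syt1 41. The levels of this list are therefore a description that depends on the rule, and no value without these genes was computed. Of 15 transcription factors of granule and forebrain neurons 3 were higher and 1 lower, against 8.82% and 4.43% of all tested genes, with a median of 0.22. The 4 corticosteroid response genes had a median of -0.47, with 1 lower, against 4.43%. Of 10 measured neuropeptide and secretory genes 4 were at least 2-fold higher and 1 lower, against 8.82% and 4.43% of all tested genes, with a median of 0.50; without the glia-rich cells 3 of 10 were higher and 1 lower. Nptxr, a pentraxin receptor of excitatory synapses, had 274, 549 and 196 CPM, and Nrn1, an activity-regulated membrane protein, 509, 798 and 622 CPM. Of 16 cytoskeletal genes 5 were higher and 1 lower, against the same 8.82% and 4.43%. Tubb2b, Tubb3 and Stmn1 of the cytoskeletal list are also on the immature neuron list. Tubb2b, a tubulin of growing neurites, had 58.8, 211 and 32.7 CPM, and Tuba1a 255, 575 and 164 CPM; the log2 ratio of Tuba1a was 0.46 without the glia-rich cells and 0.14 under 5% mitochondrial UMIs. Without the glia-rich cells 3 of 15 cytoskeletal genes were higher and 2 lower, against 8.43% and 4.14% of all tested genes. The part of less mature cells in these cytoskeletal levels was not tested. The 14 presynaptic genes had a median of -0.23, with 0 higher and 1 lower, against 8.82% and 4.43% of all tested genes. The 7 glutamate receptor genes had a median of 0.27, with 1 higher, against the same 8.82%. The 10 GABA receptor genes had a median of -0.24 and none past 2-fold, against the same 8.82% and 4.43%. In lists this short, 1 gene more or less is no result about the list. Of 3 measured immediate early genes 1 was higher, against 8.82% of all tested genes: Fos had 4, 25 and 1 UMIs in 4, 11 and 1 cells, a ratio of 2.04 (95% interval 0.704 to 8.06). Without the glia-rich cells 0 of 3 passed 2-fold and the ratio of Fos was 1.77 (95% interval 0.602 to 7.07).

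In aged mice, only 650 genes reached 20 UMIs over both libraries. Of these, 38 were at least 2-fold higher in the aged neurons (5.85%) and 53 at least 2-fold lower (8.15%), and without the glia-rich cells 25 of 587 were higher (4.26%) and 44 lower (7.5%). This comparison uses the same control library as the runner comparison. Aged neurons held 30558 UMIs against 51049 in control, so here the filter favours genes high in control. Cck (ENSMUSG00000032532.7, chr9:121489824-121495694, minus strand), the neuropeptide cholecystokinin, also on the GABAergic list, had 25, 42 and 2 UMIs in 10, 17 and 2 cells, or 489.7, 268 and 65.4 CPM, an aged to control ratio of 0.134 (95% interval 0.0153 to 0.536). Ubb, a polyubiquitin gene, had 1058, 613 and 262 CPM and a ratio of 0.247 (95% interval 0.102 to 0.523). Ndufb8, a subunit of respiratory complex I, had 24, 90 and 3 UMIs and a ratio of 0.209 (95% interval 0.0403 to 0.688). Kalrn had 607, 511 and 196 CPM and a ratio of 0.323 (95% interval 0.11 to 0.787). Without the glia-rich cells the ratios were 0.147 for Cck, 0.144 for Ubb, 0.153 for Ndufb8 and 0.368 for Kalrn. Under 5% mitochondrial UMIs Kalrn ended under 2-fold, at a log2 ratio of -0.86. Cck and Ndufb8 were both at -1.66 there, with 95% intervals of -5.13 to 0.279 that included 0. Ubb was at -3.85 (-9.76 to -1.83). With at least 3 membership genes the log2 ratio of Ndufb8 moved from -2.07 to -1.09 (-2.61 to 0.0938). In the other kept barcodes the ratios were 0.185 for Cck, 0.49 for Ubb, 0.875 for Ndufb8 and 1.25 for Kalrn.

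Most of the genes that were highest in the aged neurons came from 1 cell. Apoe, the main lipid carrier made by astrocytes, had 353, 287 and 3403 CPM and a ratio of 9.65 (95% interval 5.82 to 16.9), which became 0.613 (95% interval 0.199 to 1.61) without the glia-rich cells. The same step took Slc1a3, an astrocyte glutamate transporter, from 19.2 to 0.92 and Clu, a secreted chaperone, from 8.69 to 0.368. The dendritic mRNAs moved likewise. Camk2a had 979, 919.8 and 2585 CPM and a ratio of 2.64 (95% interval 1.83 to 3.84), and 1.13 (95% interval 0.69 to 1.81) without them. Ddn, a postsynaptic density protein, had 686, 326 and 1669 CPM and a ratio of 2.43 (95% interval 1.55 to 3.86), and 0.725 (95% interval 0.35 to 1.41) without them. Of 6 measured mRNAs known to be carried into dendrites, 4 were at least 2-fold higher, against 5.85% of all tested genes, with a median log2 ratio of 1.21, and without the glia-rich cells 1 of 5, against 4.26%, with a median of 0.10.

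Xist, the noncoding RNA of the inactive X chromosome, was detected in different shares of the cells. It had at least 3 UMIs in 4 of 24 control, 17 of 58 runner and 7 of 12 aged cells, and none in 20, 39 and 5. UMIs of Y-linked genes were found in 8, 18 and 4 of the cells without Xist and in none of those with 3 or more. The remaining 2 runner cells, with 1 or 2 Xist UMIs, also carried Y-linked UMIs, so the split was not complete. Each library held neurons with 3 or more Xist UMIs and neurons with Y-linked UMIs. The aged to control ratio of Xist was 3.02 (95% interval 1.98 to 4.67). The part of this mix in the other differences was not tested.

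In the aged neurons the presynaptic list had the lowest median of the lists with at least 3 measured genes, -0.72 over 9 genes, against -0.04 over all tested genes. 2 of these genes were at least 2-fold lower and 0 higher, against 8.15% lower and 5.85% higher of all tested genes, and without the glia-rich cells 0 of 8 passed 2-fold, against 7.5% lower and 4.26% higher, with a median of -0.70. Over all alternatives this median lay between -1.13 and -0.59. The granule neuron list had a median of -0.51 over 7 genes, none past 2-fold, and -0.33 without the glia-rich cells. Part of this list also served to choose the cells. Sncb had 1097, 907 and 719.9 CPM and Nsf 686, 613 and 425 CPM. The 4 glutamate receptor genes had a median of -0.39 and none past 2-fold. Gria2, an AMPA receptor subunit, was detected in 23, 57 and 12 cells with 1783, 2153 and 1767 CPM.

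**Figure D4:**
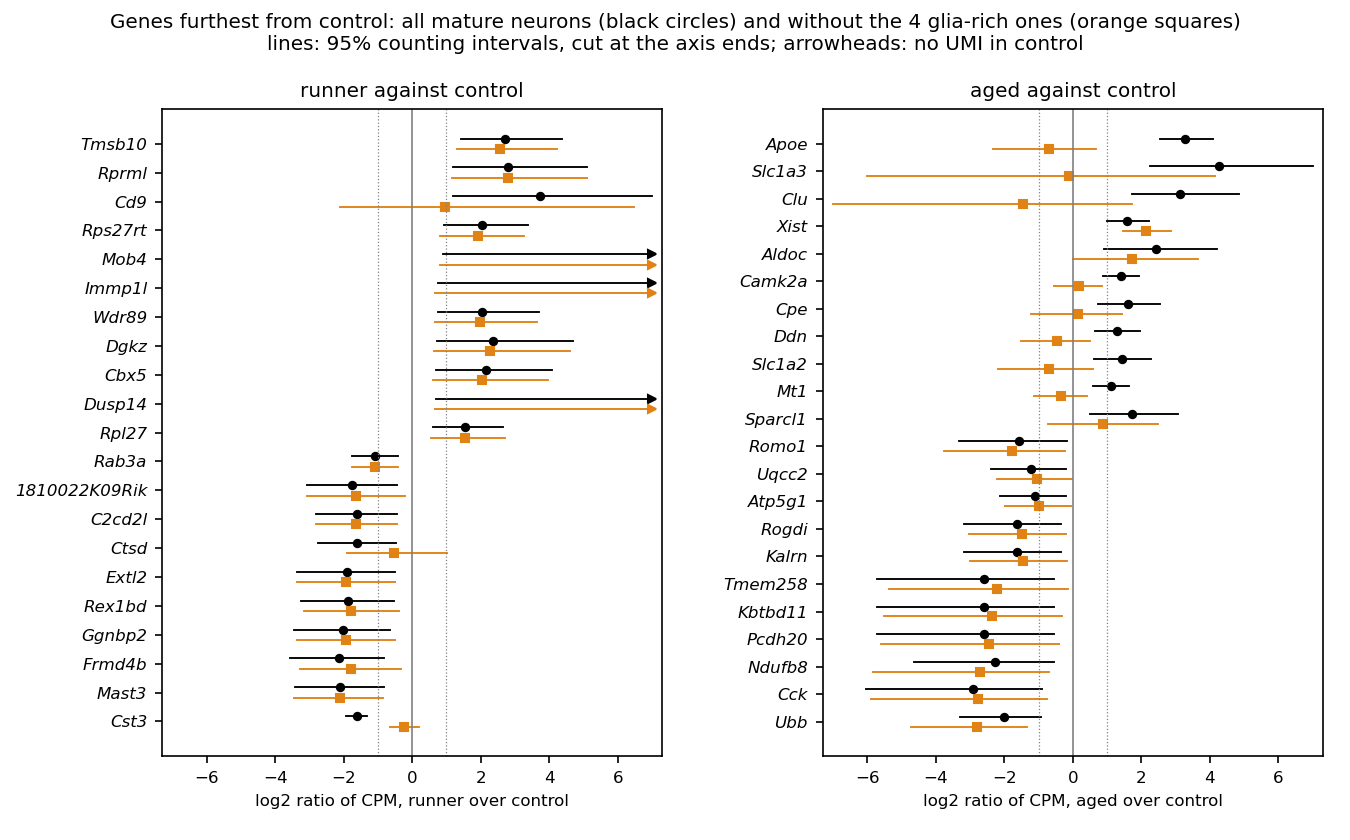
Log2 ratios of CPM over control for the reported genes among the 12 highest and 12 lowest of each comparison, ranked by the bound of the 95% interval nearest to 1; black circles use all mature neurons, orange squares leave out the 4 glia-rich cells, lines are counting intervals and arrowheads mark genes with no control UMI. On the right Apoe, Slc1a3, Clu, Ddn, Slc1a2 and Mt1 cross to the other side of 0 without the glia-rich cells, while Cck and Ubb stay below it.

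**Figure D5:**
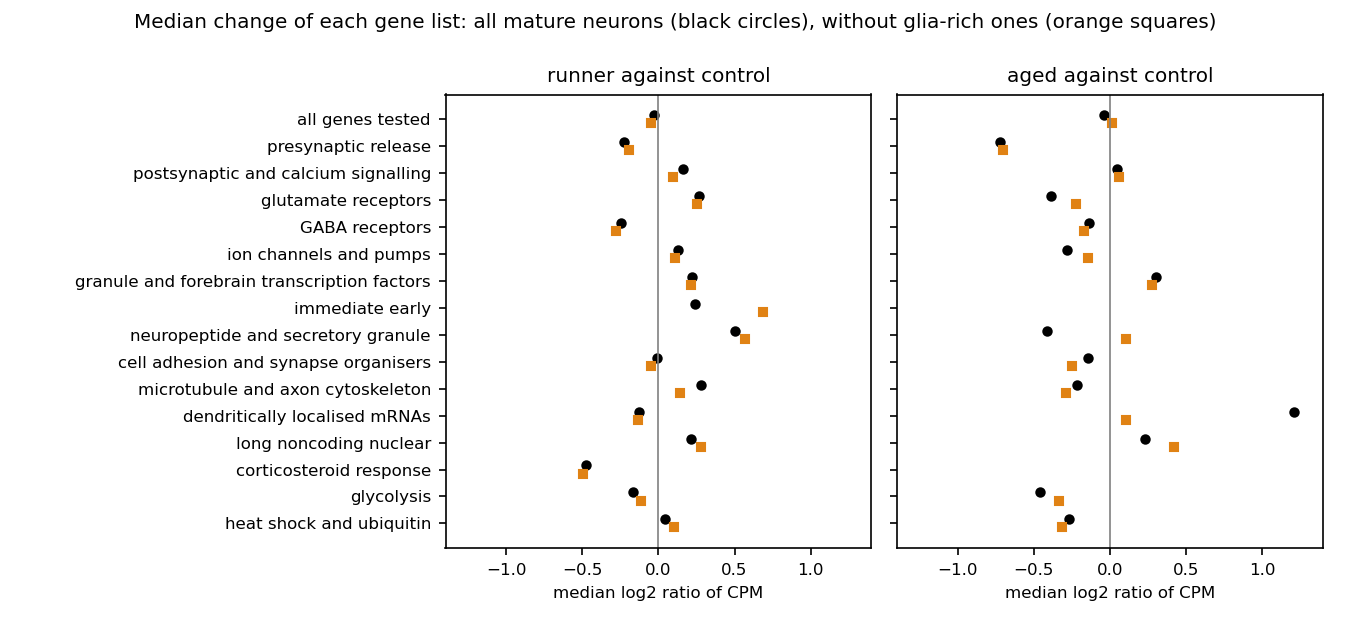
Median log2 ratio of CPM over control for each function list with at least 3 measured genes and for all genes tested, in runner (left) and aged (right) neurons; black circles use all mature neurons and orange squares leave out the 4 glia-rich cells. The dendritic mRNA list in aged neurons falls from 1.21 to 0.10.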

How the data were processed

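Dentate gyrus cells were profiled with 10x Chromium 3′ kit version 2, per the labels. The authors deposited UMI counts per gene and barcode, 1 table per library. The submitters' processing notes name Cell Ranger 2.1.1, Seurat 3.1.0 and GRCm38; the sources used here do not give the annotation release or how barcodes were called. Counts were read with pandas 2.3.3. UMIs were summed over the chosen cells of each library and scaled to CPM. Ratios have exact conditional binomial intervals, and shares exact binomial ones (SciPy 1.17.1). A difference was called past 2-fold, for genes with at least 20 UMIs over both libraries. Named genes were the membership genes, the 25 leading genes, the 12 highest and 12 lowest per comparison, and the most abundant genes of each list; a few of them are not reported here. Neurod6, Gad2, Slc32a1 and cells described singly were picked out with their values seen. The members and lists were chosen with earlier results of these data known, and the Sox11 set, the Cajal-Retzius set and the limit of 20 glial UMIs after seeing them. Doublets were left in; Scrublet (Scanpy 1.11.5) calls were an alternative. Gene positions are from GENCODE M21 and upstream sequences from RefSeq. Ratios were also computed on simulated sums, drawn independently per gene with counting error only. The intervals assume the same error, and no gene there had its UMIs gathered in 1 cell. That run therefore cannot show how well the intervals hold for these data.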

Additional observations from a re-analysis of the deposited data

Results flagged for a closer look

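Several genes moved one way in the mature neurons and the other way in the rest of the kept barcodes of the same libraries. The difference was not tested in any of these cases. Against control, Rab3a stood at 0.47 in runner neurons and 1.43 in the other runner barcodes. In the aged library Apoe stood at 9.65 in mature neurons and 0.869 in the other barcodes, Clu at 8.69 and 0.671, Cpe at 3.06 and 0.735, Camk2a at 2.64 and 0.447, Ddn at 2.43 and 0.378, and Mt1 at 2.16 and 0.736. Without the glia-rich cells the aged neurons gave 0.61 for Apoe, 0.368 for Clu, 1.10 for Cpe, 1.13 for Camk2a, 0.725 for Ddn and 0.793 for Mt1.

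Barcodes set aside for at least 10% mitochondrial UMIs also held neuronal RNA: in the runner library 2.01% of them met the other conditions of the rule, against 1.73% in the control library, and this difference was smaller than counting error (0.277 points, 95% interval -0.614 to 1.16).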

How the results depend on the processing

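The differences in share between libraries kept their direction and stayed within the intervals given above under all 8 alternatives. The number of genes past 2-fold did not hold: 263 for runner neurons became 160 under 5% mitochondrial UMIs, 157 without cells carrying 3 or more genes of a glial list, 86 after thinning to 1000 UMIs, 949 with at least 10 UMIs over both libraries and 63 with at least 40. The 91 for aged neurons became 28, 34, 39, 378 and 17 under the same settings, and 138 under 20% mitochondrial UMIs. These settings change how many genes and cells enter.

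Of 1954 recomputed log2 ratios of named genes, 1847 stayed within their interval and 85 left it without a called sign turning. The other 22 turned sign from a ratio past 2-fold, and sign turns of genes under 2-fold were not counted. Of the 1847, 175 without Scrublet calls, 175 with at least 10 UMIs and 138 with at least 40 UMIs could not differ. Those settings change no ratio of a gene that is still measured. In runner neurons the ratios that turned sign were -0.454 for Cd9 and 0.0194 for Cst3 without cells carrying 3 or more glial genes, and -0.502 for Fos with at least 3 membership genes. In aged neurons, leaving out the cells with 20 or more glial UMIs, chosen after seeing the data, gave -0.63 for Apoe, -0.995 for Clu, -0.432 for Ddn, -0.315 for Mt1 and -0.64 for Slc1a2. Leaving out cells with 3 or more glial genes gave -1.24 for Apoe, -0.368 for Camk2a, -0.0904 for Cpe, -1.36 for Ddn and -0.244 for Mt1. Requiring 5 membership genes gave -0.495 for Apoe, -0.0273 for Cpe, -0.53 for Ddn, -0.45 for Mt1 and -0.368 for Slc1a2, and a 5% mitochondrial limit gave -1.78 for Clu, -0.68 for Cpe, -0.738 for Ddn and -1.01 for Mt1. The astrocyte-rich aged cell has 8.10% mitochondrial UMIs and 4 membership genes, so each of these settings removes it.

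Of 357 recomputed list medians, 2 turned from a median past 2-fold: the dendritic list in aged neurons gave -0.21 both under 5% mitochondrial UMIs and without cells carrying 3 or more glial genes. The limit of 1 on the log2 scale for this count was set after the values were seen. With a limit of 0.1, 22 medians of 13 lists and comparisons turned sign, so the sign of a list median near 0 is not stable here. Depth limits the aged comparison, with 12 cells and 30558 UMIs, and no condition has a replicate. No paired analysis was possible because each group has 1 library.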
